A study of Ciona robusta with 16 samples.

Results

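The comparison set late tailbud II embryos (latTII, 13.5 h after fertilization) against hatched larvae (larva, 17.5 h) of the tunicate Ciona robusta. Its members were the 2 latTII and the 2 larva libraries, 4 of the 16 libraries of a poly(A) RNA-seq course over 8 stages, read on the 18388 rows with a KY21 gene identifier of 18424 rows in all. Each library came from a pool of whole wild-type embryos that had been dechorionated and fertilized in vitro, and no allele or drug distinguished the groups, only age. The labels state no sex, tissue or dissection. A replicate is a separate collection of embryos, and which of the 2 fertilization batches a replicate number denotes is not given. The comparison asks which mRNAs differ between the last embryonic stage sampled and the free larva. Pools of whole embryos cannot tell fewer cells of a type from less RNA per cell.

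The Ciona tadpole has the chordate body plan, with a notochord flanked by tail muscle, a dorsal nerve cord, and a sensory vesicle that carries a pigmented ocellus and otolith. Late tailbud embryos elongate the tail and complete the differentiation of muscle, neurons and epidermis while a cellulose-containing tunic is deposited around them. The hatched larva swims, does not feed, and later attaches by its anterior papillae to begin metamorphosis, in which the tail is resorbed while the endoderm and the juvenile organs develop.

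The latTII libraries held 28.2 and 33.4 M estimated counts and the larva libraries 24.6 and 24.9 M. Levels are given as TPM, which divides reads by transcript length and sets every library to the same sum over all rows. They are always in the order latTII replicate 1, latTII replicate 2, larva replicate 1 and larva replicate 2. The KY21 rows held 75.8%, 81.7%, 76.7% and 76.3% of that sum in this order, and the TPM given were not rescaled for this. Across 13832 genes detected in at least 1 stage (mean TPM of 2 or more), Pearson's r of log2(TPM+1) was 0.948 between the latTII replicates and 0.963 between the larva replicates. Between stages it ranged from 0.895 to 0.936, and latTII replicate 1 was nearer to the larva libraries (0.936 and 0.917) than latTII replicate 2 was (0.899 and 0.895). Genes are not independent replicates, so these correlations carry no p. The 7 muscle markers summed to 6089 and 6059.6 TPM in latTII and to 5661 and 5569 in larva, and the 5 neuronal markers to 372 to 429 TPM in the 4 libraries. No marker of the 8 cell types examined was at 0 in all 4 libraries. Markers of oocytes and germ cells summed to 107 and 95.5 TPM in latTII and 76.2 and 72.8 in larva, and those of blood cells to 389.9 to 461 TPM. A gene symbol is that of the nearest relative in human or frog, which does not fix the function in Ciona, and 3814 of the genes tested have one.

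Of 14623 genes tested, 1241 passed an adjusted p of 0.05 (8.49%), with 480 higher in larva (3.28%) and 761 lower (5.2%). The test was edgeR's quasi-likelihood F-test with TMM scaling and Benjamini-Hochberg adjustment over all genes tested. Among the 3814 genes with a symbol 400 passed (10.5%), 138 higher (3.62%) and 262 lower (6.87%), which is the background for the gene lists. The median log2 fold change was 1.31 among the genes that rose, -1.11 among those that fell and 0.04 over all genes tested. A log2 fold change of at least 1 was fitted for 304 of the risen genes and of at most -1 for 445 of the fallen ones. The genes that rose held 5.52% ± 0.45 (SD, n = 2) of the KY21 TPM in latTII and 12.91% ± 0.95 in larva. Those that fell held 16.98% ± 1.68 in latTII and 6.94% ± 0.44 in larva. Replicates did not overlap in TPM for 1240 of the 1241 called genes and for 54.6% of all genes tested. Replicates that lie apart are therefore no further support for a call, and are common among genes that did not pass. With library totals in place of TMM factors, 654 genes rose and 510 fell, and the median of all genes moved from 0.035 to 0.167, so list medians are read against the median of all genes. The number of calls depended on each library. Leaving out latTII replicate 1 gave 1346 calls, leaving out latTII replicate 2 gave 390, and the fits that lacked larva replicate 1 or larva replicate 2 gave 583 and 295.

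**Figure D1:**
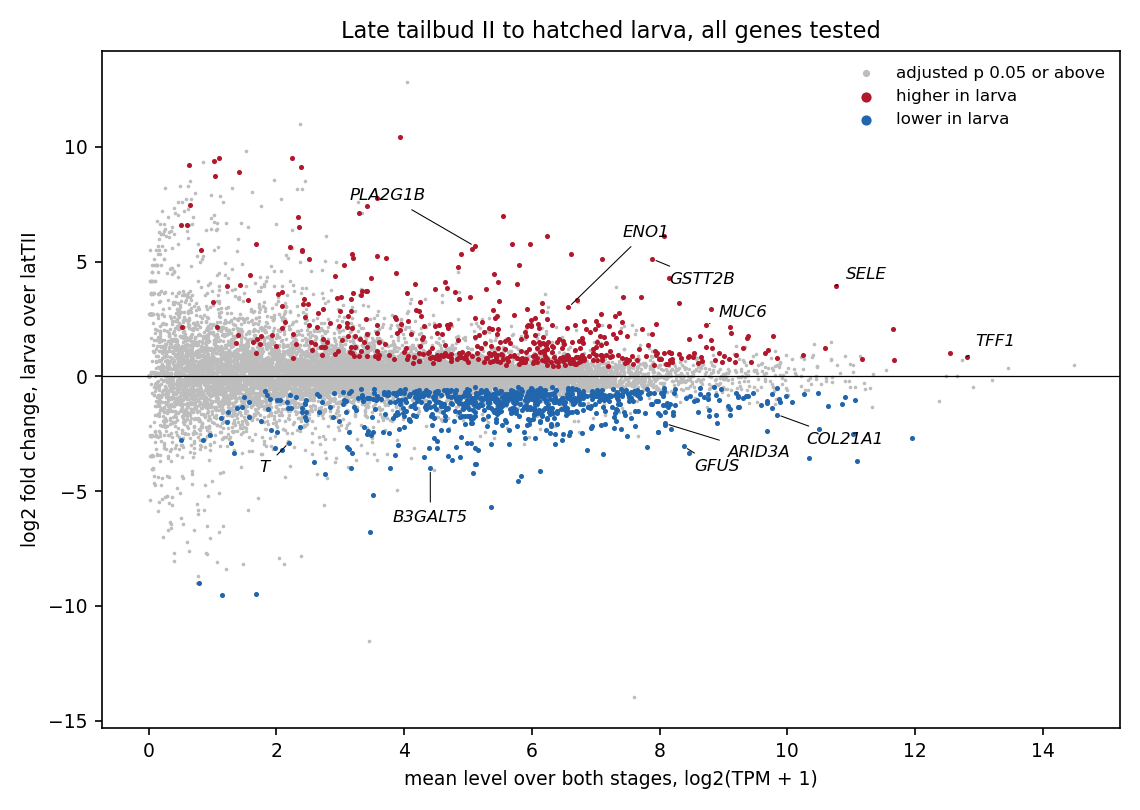
Fitted log2 fold change (larva over latTII) against mean level (log2(TPM + 1), mean of both stages) for the 14623 genes tested. Red points are the 480 genes higher in larva and blue points the 761 lower in larva, grey points did not pass, and SELE and TFF1 stand out among the abundant mRNAs that rose.

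Calls went with transcript length. The ratio of estimated count to TPM gives each gene's effective length relative to the others, and the genes tested were split by it into 5 bins of nearly equal size. The share that fell was 1.24% in the shortest bin and 2.89%, 3.68%, 6.18% and 12.2% in the following bins. The share that rose was between 2.68% and 3.95% in every bin. The median log2 fold change also went from 0.17 in the shortest bin to -0.13 in the longest. Each of the 4 pairs of a larva and a latTII library showed this slope, from between 0.13 and 0.21 in the shortest bin to between -0.19 and -0.09 in the longest. Between replicates of a stage the medians by bin stayed between -0.04 and 0.00. The part that length plays in the calls was not tested further. List medians are therefore also given, for most lists, after the median of each member's own length bin was subtracted.

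**Figure D2:**
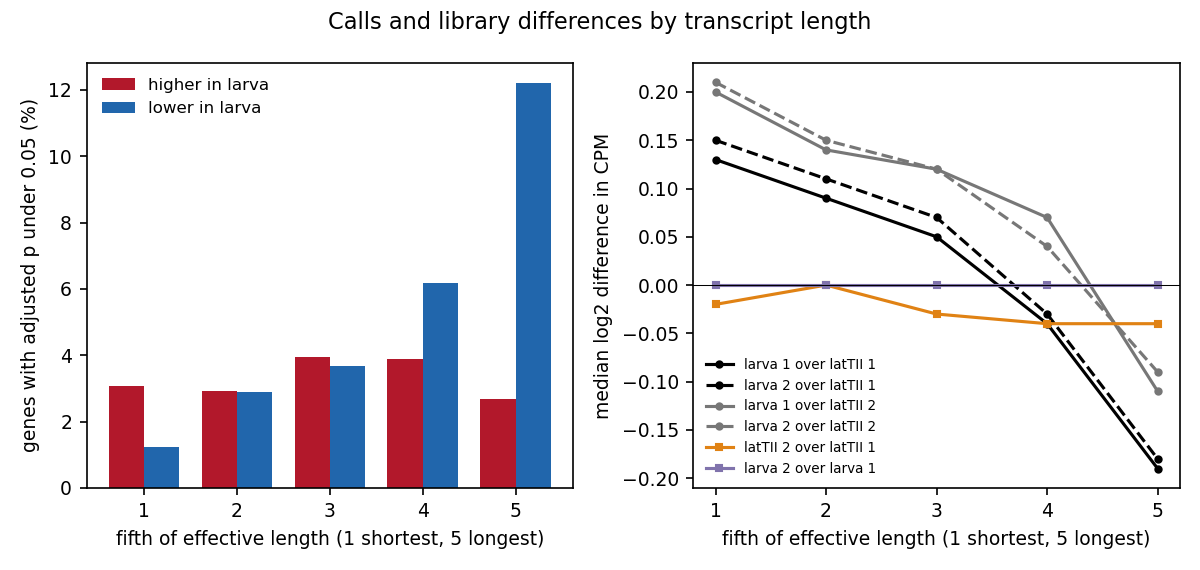
Left, the share of genes that passed an adjusted p of 0.05 in each of 5 bins of effective length, where the share lower in larva goes from 1.24% to 12.2% and the share higher stays between 2.68% and 3.95%. Right, the median log2 difference in counts scaled to library size between pairs of libraries in each bin, where the 4 pairs across stages slope down and the 2 replicate pairs stay between -0.04 and 0.00.

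Among the 15 largest rises are genes for secreted, detoxifying and glycan-modifying proteins. First was the match of PLA2G1B (KY21.Chr2.827), a secreted phospholipase A2 of digestive juice in vertebrates. Its TPM was 1.05, 1.55, 82.7 and 48.6, so it was near the limit of detection in both latTII libraries and well above it in both larva libraries, with a log2 fold change of 5.67 (SE 0.65, adjusted p = 0.00019). GSTT2B (KY21.Chr10.191), a theta-class glutathione transferase, had 22.2, 4.72, 599 and 315 TPM and a log2 fold change of 5.12 (SE 0.65, adjusted p = 0.00051). Its latTII replicates differed several-fold. SELE (KY21.Chr1.494), the match of a selectin with a C-type lectin domain, was the most significant of the largest rises. It had 184, 247, 2851 and 3632 TPM, 15.5-fold higher in larva (log2 fold change 3.96, SE 0.18, adjusted p = 6.6e-08), and was at 13.1 TPM in the middle tailbud II (midTII). All of these calls held when any 1 of the 4 libraries was left out.

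Further large rises were in matches of metabolic and glycan-modifying enzymes. ENO1 (KY21.Chr8.849), a match of the glycolytic enzyme enolase, had 20.3, 22.5, 167 and 166 TPM (log2 fold change 3.01, SE 0.15, adjusted p = 1.2e-07). POFUT1 (KY21.Chr1.402) and EOGT (KY21.Chr8.1197) are matches of enzymes that add O-fucose and O-GlcNAc to EGF repeats, as on Notch receptors. POFUT1 had 14.7, 14, 95.6 and 115 TPM (log2 fold change 2.92, SE 0.28, adjusted p = 4.6e-05), and EOGT 23, 20.9, 92.5 and 103 TPM (log2 fold change 2.20, SE 0.40, adjusted p = 0.0048). In both genes every larva value was several times every latTII value, and the call of EOGT was lost without latTII replicate 2 (adjusted p = 0.068) and without larva replicate 2 (adjusted p = 0.063). FBXL7 (KY21.Chr1.1449), an F-box protein of ubiquitin ligases, had 88.9, 39.5, 620.1 and 518 TPM. CHSY1 (KY21.Chr1.1486), a synthase of chondroitin chains, had 82.8, 56.2, 256 and 264 TPM. Both rose, with log2 fold changes of 3.18 and 1.95. GPD1 (KY21.UAContig26.3), a glycerol-3-phosphate dehydrogenase, had 22.5, 8.03, 41.2 and 85 TPM (log2 fold change 2.09, SE 0.54, adjusted p = 0.034). Its replicates differed widely, and the adjusted p was 0.27 without latTII replicate 2 and 0.31 without larva replicate 2.

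The 15 largest falls include genes of glycan synthesis, adhesion and muscle. B3GALT5 (KY21.Chr1.768), a galactosyltransferase, had 28.7, 47.7, 2.79 and 1.84 TPM, 16-fold lower in larva (log2 fold change -4.0, SE 0.49, adjusted p = 0.00031). GFUS (KY21.Chr1.1534), the enzyme that makes GDP-fucose, the donor of fucose to glycans, had 377, 810.3, 82.3 and 57.1 TPM (log2 fold change -3.05, SE 0.41, adjusted p = 0.00095). It had stood at 1758 TPM in midTII. ITGB4 (KY21.Chr13.475), an integrin beta chain of epithelial attachment to the basement membrane, had 108, 179.7, 19.7 and 16.1 TPM (log2 fold change -2.96, SE 0.29, adjusted p = 5.5e-05). Replicates that do not overlap were a condition for the 15 largest rises and falls, so the separation of the stages is not a result. The calls of B3GALT5, GFUS and ITGB4 held without any 1 library. The match of CXORF38 (KY21.Chr7.845) had 51, 62.1, 7.74 and 7.16 TPM and SERPINC1 (KY21.Chr11.1100), a serpin protease inhibitor, had 66.8, 128, 23.4 and 20.2 TPM. CEP120 (KY21.Chr1.618), a centriole protein, had 91, 165, 25.2 and 29.6 TPM. The log2 fold changes of these 3 were -2.88, -2.11 and -2.17, and SERPINC1 alone of them missed the threshold in 1 fit, without larva replicate 2 (adjusted p = 0.051). EIF3A (KY21.Chr11.78) had 159, 211, 43.7 and 21.9 TPM (log2 fold change -2.45), after 2045 TPM in the late neurula (latN) and 1.78 in the egg. CSMD3 (KY21.Chr1.739), the match of a large transmembrane protein, had 16.2, 19.3, 4.09 and 2.34 TPM (log2 fold change -2.43).

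**Figure D3:**
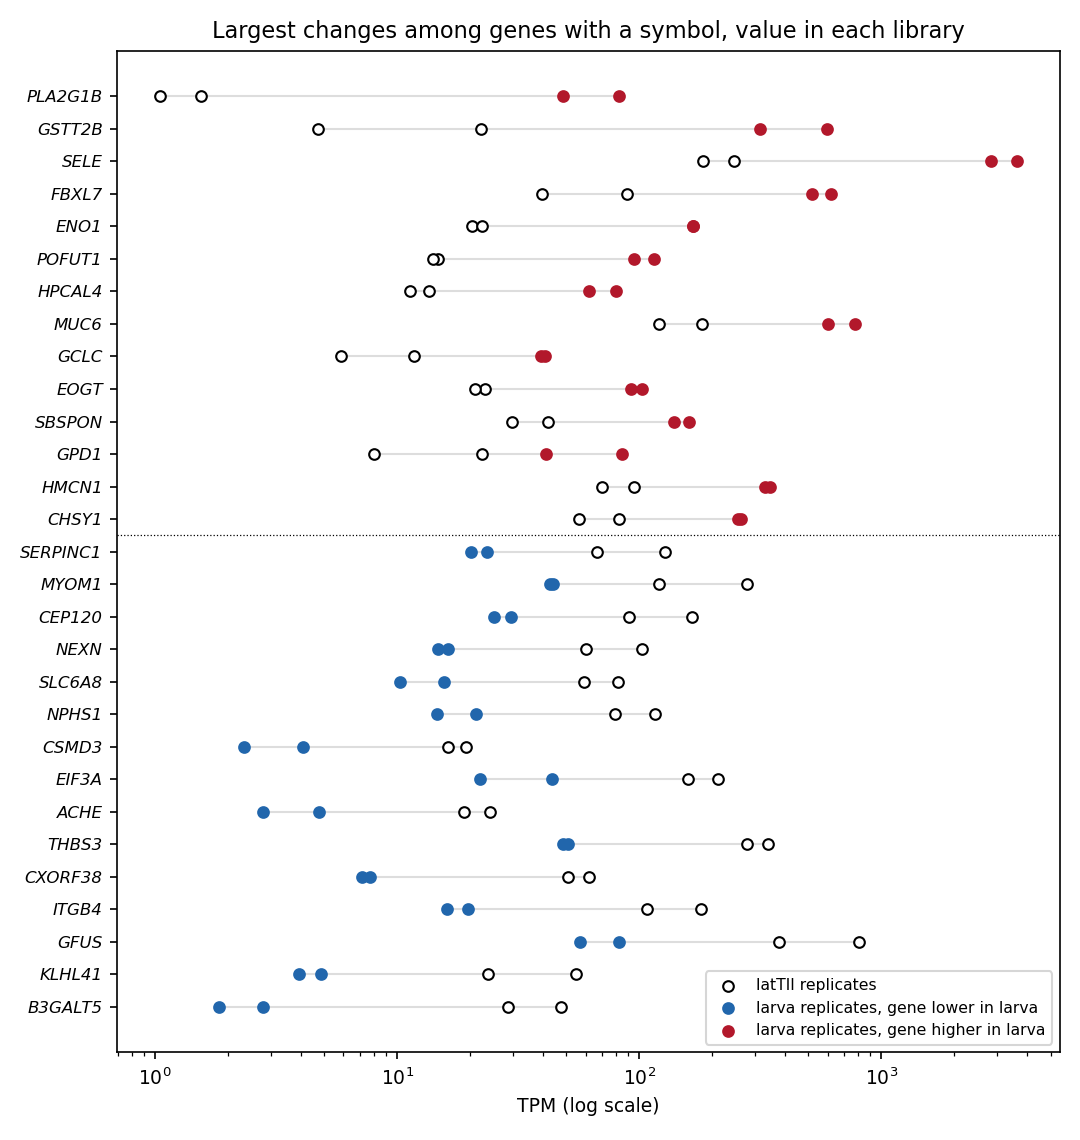
TPM (log axis) in each of the 4 libraries for the largest rises and falls described, among called genes with a symbol that reached a mean of 10 TPM and whose stages do not overlap. Open circles are latTII replicates and filled circles larva replicates, from PLA2G1B at the top to B3GALT5 at the bottom. The filled circles stand clear of the open ones because the genes were chosen that way.

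Several sarcomere mRNAs fell. Of 25 tested genes of muscle contraction, 10 fell, 1 rose and 14 did not pass. The share called was 44%, against 10.5% of genes with a symbol, where 6.87% fell and 3.62% rose. Their median log2 fold change was -0.71, against 0.04 for all genes tested, and -0.63 after the length bins were subtracted. The fallen genes are matches of MYOM1, NEB, KLHL41, MYBPC3, RYR3, MYH6, ACTN2, NEXN, TRIM55 and TTN. RYR3 is a calcium release channel, and most of the others are structural proteins of the sarcomere. MYOM1 (KY21.Chr2.1464), myomesin of the M-line, had 121, 279, 43.9 and 43 TPM (log2 fold change -2.16, SE 0.31, adjusted p = 0.0012). NEB (KY21.Chr1.2095), nebulin of the thin filament, had 42.1, 73.3, 14.2 and 16.6 TPM (log2 fold change -1.86, SE 0.28, adjusted p = 0.0014). Both held without any 1 library, and their latTII replicates differed more than their larva replicates. KLHL41 (KY21.Chr1.864), a Kelch protein that stabilizes nebulin, had 23.8, 54.8, 4.87 and 3.95 TPM (log2 fold change -3.11, SE 0.53, adjusted p = 0.0032) after 142 TPM in midTII. MYBPC3 (KY21.Chr1.326), a myosin-binding protein of the thick filament, had 345, 514, 167 and 185 TPM (log2 fold change -1.24, SE 0.22, adjusted p = 0.0046). ACTN2 (KY21.Chr11.1071), alpha-actinin of the Z-disc, had 1729, 1841, 1098 and 1019 TPM (log2 fold change -0.71, SE 0.16, adjusted p = 0.014). NEXN (KY21.Chr9.640), an actin-binding protein of the Z-disc, had 60.3, 103, 14.7 and 16.3 TPM (log2 fold change -2.35, SE 0.54, adjusted p = 0.021). Without latTII replicate 2 the adjusted p was 0.061 for MYBPC3, 0.09 for ACTN2 and 0.17 for NEXN. Without larva replicate 1 it was 0.051, 0.069 and 0.15 for the same genes, and without larva replicate 2 it was 0.062 for KLHL41, 0.13 for ACTN2 and 0.17 for NEXN. The number of fallen genes was 10, 4, 3 and 4 when latTII replicate 1, latTII replicate 2, larva replicate 1 and larva replicate 2 were left out in turn. STAC3, an adaptor of excitation and contraction, was the member that rose. TNNI1 (KY21.Chr11.473), inhibitory troponin and the most abundant member that did not pass, had 1985, 1981, 2255 and 2125 TPM (log2 fold change 0.19, SE 0.30, adjusted p = 0.79). Of the 10 fallen genes, 7 were in the longest length bin, where the background share of falls is 12.2%. The called falls had a median length percentile of 91.3, and the members that did not pass of 68.3. The summed TPM of the list was 11691 and 12295 in latTII and 8989.8 and 8993 in larva.

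Matrix genes changed in both directions, with more falls. Of 44 tested genes of the extracellular matrix, 12 fell and 4 rose, with a median log2 fold change of -0.49, and -0.47 after the length bins were subtracted. Calls made up 36.4% of the list, against 10.5% of genes with a symbol, where 6.87% fell and 3.62% rose. Of the 12 falls, 7 were in the longest length bin, which holds 20 of the 44 genes. THBS3 (KY21.Chr6.470), a thrombospondin, had 278, 340, 50.6 and 48.3 TPM (log2 fold change -2.60, SE 0.29, adjusted p = 0.00018). COL21A1 (KY21.Chr1.567), a fibril-associated collagen, had 1185, 1614, 439 and 419 TPM (log2 fold change -1.66, SE 0.22, adjusted p = 0.0006). NID2 (KY21.Chr11.335), nidogen of the basement membrane, had 2435, 2116, 894 and 927 TPM (log2 fold change -1.28, SE 0.19, adjusted p = 0.0014). The larva replicates of all 3 were close together and far below latTII. The other genes that fell were matches of FBN3, FBLN1, FBLN5, FRAS1, MATN3, NTN1, LAMA2, P3H2 and COLGALT1, the last pair being enzymes that modify collagen. HMCN1 (KY21.Chr10.728), hemicentin, had 70.2, 95, 346 and 331 TPM (log2 fold change 2.08, SE 0.27, adjusted p = 0.00048), from 3.55 TPM in midTII. SBSPON (KY21.Chr10.505), a protein with a somatomedin B and a thrombospondin domain, had 42, 29.7, 160.3 and 139 TPM (log2 fold change 2.10, SE 0.27, adjusted p = 0.00049). COL12A1 and SDC4 also rose, by 1.13 and 0.64 on the log2 scale. The most abundant mRNA with a symbol in both stages was MATN2 (KY21.Chr1.2187), a matrilin, with 9139, 10783, 12286 and 12818 TPM. Its replicates did not overlap, as in 54.6% of all genes tested, and the log2 fold change of 0.38 (SE 0.18, adjusted p = 0.22) did not pass. The summed TPM of the list was 19206 and 21408 in latTII and 19557 and 20470.2 in larva, so the groups overlapped, with MATN2 making up much of each sum. Without latTII replicate 1, latTII replicate 2, larva replicate 1 and larva replicate 2, 10, 10, 8 and 7 genes fell.

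Of 27 tested genes of cell adhesion and polarity, 6 fell and none rose with edgeR (22.2%, against 6.87% falls among genes with a symbol). The median log2 fold change was -0.16, which is also the value after the length bins were subtracted. At an unadjusted p under 0.05, 9 were lower and 2 higher, and by DESeq2 7 fell and 1 rose. NPHS1 (KY21.Chr11.918), the match of nephrin, an adhesion protein of the immunoglobulin family, had 79.6, 116, 21.2 and 14.6 TPM (log2 fold change -2.41, SE 0.23, adjusted p = 4.6e-05). KIRREL1 (KY21.Chr10.819), whose vertebrate relative binds nephrin, had 31.9, 73.5, 12.7 and 12 TPM (log2 fold change -2.05, SE 0.38, adjusted p = 0.0059). PARD3 (KY21.Chr10.951), a scaffold of apical polarity, had 42.1, 45.4, 26.5 and 21 TPM (log2 fold change -0.84, SE 0.15, adjusted p = 0.0035). These 3, with ITGB4, TLN2 and TNS3, are the members that fell. TLN2 and TNS3 link integrins to actin. Of the 6 falls, 5 were in the longest length bin, which holds 20 of the 27 genes and where 12.2% of all genes fell. CLDN7 (KY21.Chr11.150), a claudin of tight junctions and the most abundant member that did not pass, had 295, 606, 241 and 242 TPM, so its latTII replicates lay far apart. PARD3 missed the threshold without larva replicate 2 (adjusted p = 0.071), and KIRREL1 without latTII replicate 2 (0.089) and larva replicate 2 (0.078). The number of falls was 8, 3, 4 and 2 without latTII replicate 1, latTII replicate 2, larva replicate 1 and larva replicate 2.

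Signalling genes fell more than they rose. Of 40 tested, 11 fell and 1, POFUT1, rose, and the median log2 fold change was -0.33 (-0.25 after the length bins were subtracted). Calls made up 30% of the list, against 10.5% of genes with a symbol, where falls (6.87%) also outnumbered rises (3.62%). NPR1 (KY21.Chr10.1144), a natriuretic peptide receptor, had 83.4, 112, 26.9 and 23.4 TPM (log2 fold change -1.91, SE 0.26, adjusted p = 0.0006). SFRP5 (KY21.Chr1.859), a secreted antagonist of Wnt ligands, had 330.4, 323, 150.3 and 131 TPM (log2 fold change -1.18, SE 0.17, adjusted p = 0.00093). PTK7 (KY21.Chr11.791), a receptor of planar cell polarity, had 16.7, 26.2, 6.62 and 6.64 TPM (log2 fold change -1.65, SE 0.23, adjusted p = 0.00096). In all 3 both larva values were below both latTII values, as in nearly all genes called lower, and no single library removed the call. LRP6 and LGR4, receptors of the Wnt pathway, fell by 1.06 and 1.11 on the log2 scale. EPHA4 and EFNB3, an Eph receptor and an ephrin, fell by 0.73 and 1.09. The guidance cues NTN1 and SEMA3B, the kinase BRAF and the calcium-sensing receptor CASR were the other falls. NOTCH2 (KY21.Chr10.945), a Notch receptor, had 932, 632, 318 and 248 TPM, with replicates apart as in 54.6% of all genes tested. Its log2 fold change of -1.43 (SE 0.50, adjusted p = 0.10) did not pass. The number of falls was 14, 5, 6 and 3 without latTII replicate 1, latTII replicate 2, larva replicate 1 and larva replicate 2.

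More transcription factor mRNAs fell than rose. Of 41 tested, 8 fell and 1 rose, with a median log2 fold change of -0.42 (-0.35 after the length bins were subtracted). The share called was 22%, against 10.5% of genes with a symbol, where falls (6.87%) also outnumbered rises (3.62%). ARID3A (KY21.Chr11.1304), an ARID-domain regulator, had 398, 479, 114 and 91.6 TPM (log2 fold change -2.05, SE 0.15, adjusted p = 4.6e-06) after 958 TPM in midTII. MYCN (KY21.Chr1.384), a Myc family factor of cell growth, had 106, 165, 54.6 and 47.4 TPM (log2 fold change -1.36, SE 0.25, adjusted p = 0.0046). ZEB1 (KY21.Chr1.2096) and CASZ1 (KY21.Chr1.1798), both zinc finger factors, had 46.5, 53.8, 25.2 and 27.5 TPM and 128, 225, 67 and 83.5 TPM. The log2 fold changes of ZEB1 and CASZ1 were -0.88 and -1.18. ARID3A held in every fit that left out a library. Without latTII replicate 2 the adjusted p was 0.06 for MYCN, 0.083 for ZEB1 and 0.2 for CASZ1, without larva replicate 2 it was 0.071, 0.06 and 0.065, and without larva replicate 1 it was 0.082 for ZEB1 and 0.13 for CASZ1. MXI1, YBX1 and IRF4 also fell. T (KY21.Chr12.6), Brachyury, which specifies the notochord in Ciona, was low in both stages at 4.59, 8.1, 0.525 and 1.11 TPM (log2 fold change -2.89, SE 0.72, adjusted p = 0.03), below its 28.6 TPM in the initial gastrula (iniG). Leaving out latTII replicate 2, larva replicate 1 or larva replicate 2 raised its adjusted p to 0.18, 0.19 and 0.11. HOXD10 (KY21.Chr1.2189), the match of a posterior Hox gene, was the factor that rose. It had 40.8, 66.4, 141 and 189 TPM (log2 fold change 1.67, SE 0.44, adjusted p = 0.034), and the call was lost in every fit that left out 1 of the 4 libraries (adjusted p = 0.16, 0.11, 0.1 and 0.34). The number of fallen factors was 12, 1, 2 and 1 without latTII replicate 1, latTII replicate 2, larva replicate 1 and larva replicate 2. Other factors did not pass. THRB (KY21.Chr11.1104), a thyroid hormone receptor the most abundant of these, had 150.1, 146, 129 and 112 TPM. MYT1L (KY21.Chr1.1192), a neuronal factor, had 24.7, 39.5, 22.3 and 19.9 TPM, and TFAP2A (KY21.Chr7.1145), an epidermal factor, 12.6, 15.1, 11.4 and 8.68 TPM.

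Of 43 tested genes for protein folding in the endoplasmic reticulum, 7 fell and 1 rose, with a median of -0.10 (-0.13 after the length bins were subtracted). Calls made up 18.6% of the list, against 10.5% of genes with a symbol, where 6.87% fell and 3.62% rose. The falls were matches of STT3A, STT3B, RPN1, RPN2, FKBP9, LMAN1 and ERLEC1. The first 4, singled out after their values were seen, are subunits of the oligosaccharyltransferase, the enzyme that attaches N-glycans to new proteins. DAD1 (KY21.Chr3.1270), another of its subunits, did not pass (log2 fold change -1.11, SE 0.39, adjusted p = 0.1). STT3A (KY21.Chr4.1013), a catalytic subunit, had 561, 797, 195 and 203 TPM (log2 fold change -1.72, SE 0.25, adjusted p = 0.001). RPN2 (KY21.Chr2.1050) had 623, 701, 295 and 336 TPM (log2 fold change -1.03, SE 0.19, adjusted p = 0.0051), and STT3B (KY21.Chr1.1572) had 187, 182, 107 and 92.1 TPM (log2 fold change -0.85, SE 0.15, adjusted p = 0.0045). FKBP9 (KY21.Chr9.51), a prolyl isomerase of the reticulum, had 89.1, 143, 32.3 and 31.9 TPM (log2 fold change -1.81, SE 0.19, adjusted p = 9.1e-05). The larva values of these genes lay below all latTII values, as in nearly all genes called lower. RPN2 missed the threshold without larva replicate 1 (adjusted p = 0.058) and STT3B without larva replicate 2 (0.075). HSPA5, the main chaperone of the reticulum, rose by 0.72 on the log2 scale (adjusted p = 0.036), against the direction of the 7. SSR3 (KY21.Chr1.1484), a subunit of the translocon-associated complex, had 2276, 1869.6, 1378 and 2159 TPM and its groups overlapped. None of the 7 fallen genes was in the longest length bin. The number of falls was 8, 5, 3 and 4 without latTII replicate 1, latTII replicate 2, larva replicate 1 and larva replicate 2.

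Of 46 tested glycan and tunic enzymes, 8 fell and 1, CHSY1, rose. The share called was 19.6%, against 10.5% of genes with a symbol, where 6.87% fell and 3.62% rose. B4GALT2 (KY21.Chr10.1101), a galactosyltransferase, had 335, 251, 99.8 and 65.1 TPM (log2 fold change -1.79, SE 0.29, adjusted p = 0.0024) after 607 TPM in midTII. GFPT2 (KY21.Chr12.125), which opens the route to UDP-GlcNAc, had 284, 287, 176 and 149 TPM (log2 fold change -0.77, SE 0.13, adjusted p = 0.0025). Both were lower in each larva library, as nearly all genes called lower were. Both missed the threshold without larva replicate 2 (log2 fold changes -1.54 and -0.68). UGP2 and PGM3, which make nucleotide sugars or their precursors, fell by 0.78 and 0.66, and B3GALT1, GALNT2 and MAN2A1 fell too. MGAT4A (KY21.Chr10.161), which branches N-glycans, did not pass at 262, 264, 268 and 229 TPM. The median log2 fold change was -0.10 for the folding list and -0.09 for the glycan list (-0.12 after the length bins were subtracted), and both turned positive with library totals (0.028 and 0.040), while relative to all genes they stayed below it (-0.14 and -0.12 with TMM factors). The number of fallen glycan enzymes was 6, 5, 5 and 1 without latTII replicate 1, latTII replicate 2, larva replicate 1 and larva replicate 2.

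**Figure D4:**
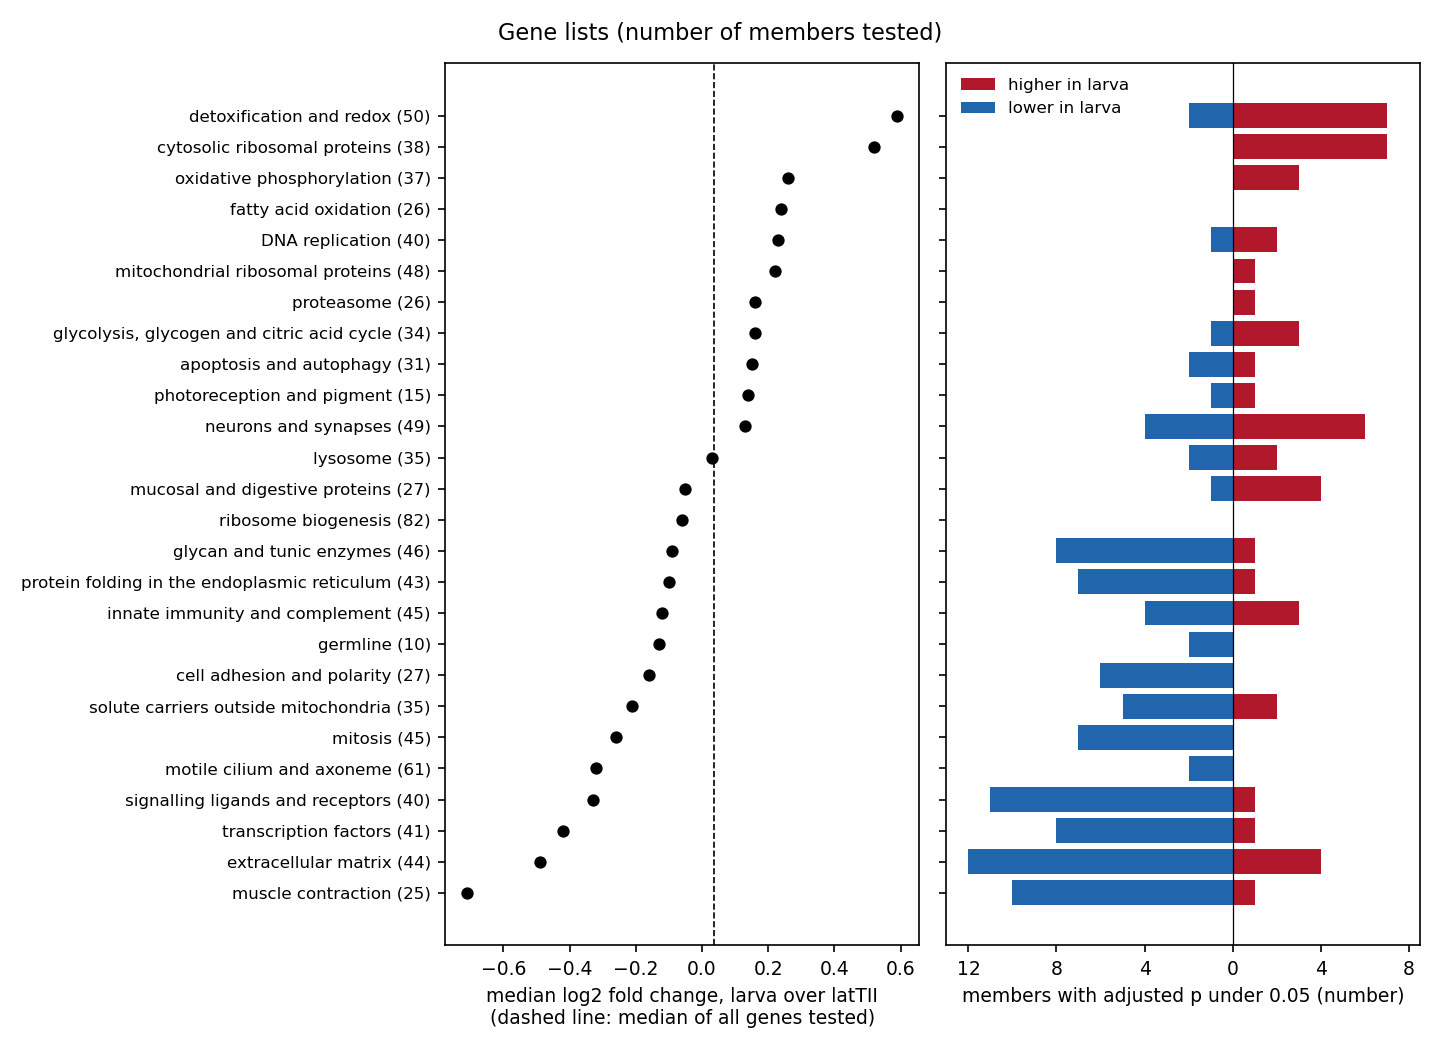
Left, the median log2 fold change (larva over latTII) of the tested members of each of 26 gene lists, with the median of all genes as a dashed line. Right, the number of members that passed an adjusted p of 0.05 in each direction, from 10 falls and 1 rise for muscle contraction at the bottom to 7 rises and 2 falls for detoxification and redox at the top, where the medians of 6 lists close to 0 change sign with library totals.

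Mucosal and digestive genes held some of the clearest rises. Of 27 tested, 4 rose and 1 fell, while the median of the list was -0.05 (-0.11 after the length bins were subtracted, 0.084 with library totals). The share called was 18.5%, against 10.5% of genes with a symbol, where 3.62% rose and 6.87% fell. MUC6 (KY21.Chr11.660), a gel-forming mucin, had 121, 181, 603 and 778 TPM (log2 fold change 2.24, SE 0.24, adjusted p = 9e-05). VIL1 (KY21.Chr9.368), villin of microvilli, had 67.5, 43.7, 151 and 163 TPM (log2 fold change 1.53, SE 0.22, adjusted p = 0.001), up from 15.3 TPM in midTII. TFF1 (KY21.Chr1.2012), a trefoil peptide that in vertebrates is secreted with mucus, was among the most abundant mRNAs at 5055, 5339, 8420.3 and 9859.9 TPM (log2 fold change 0.86, SE 0.15, adjusted p = 0.0042). With PLA2G1B these are the 4 that rose, and each was higher in both larva libraries, as nearly all genes called higher were. TFF2, another trefoil match, fell by 0.93 on the log2 scale, and TFF3 (KY21.Chr11.358) overlapped between stages at 1412, 1301, 1475 and 1075 TPM. TFF1 missed the threshold without larva replicate 2 (adjusted p = 0.068). The summed TPM was 7963 and 8472 in latTII and 11897 and 13074 in larva, most of it TFF1. The number of rises was 5, 4, 4 and 3 without latTII replicate 1, latTII replicate 2, larva replicate 1 and larva replicate 2.

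Innate immunity genes were split, with 3 rises and 4 falls of 45 tested (15.6%, against 10.5% of genes with a symbol). The median log2 fold change was -0.12 (-0.07 after the length bins were subtracted, 0.013 with library totals). The summed TPM of the list was 2036 and 2012 in latTII and 4956 and 5568 in larva, most of the difference being SELE. LGALS8 (KY21.Chr4.806), a galectin that binds galactosides, had 272, 186, 693 and 635 TPM (log2 fold change 1.58, SE 0.17, adjusted p = 0.00012). MRC1 (KY21.Chr1.2266), a mannose receptor match, had 51.1, 60.1, 23.2 and 20.4 TPM (log2 fold change -1.31, SE 0.24, adjusted p = 0.0055). MRC1 missed the threshold without larva replicate 2 (adjusted p = 0.079). Of the dual oxidase genes matched to DUOX1, which make hydrogen peroxide at epithelial surfaces, KY21.Chr1.330 rose from 13.7 and 5.23 to 49.1 and 19.5 TPM, with widely spread replicates (log2 fold change 1.89, SE 0.43, adjusted p = 0.02), and KY21.Chr1.148 fell by 0.82 on the log2 scale (adjusted p = 0.025). The first of these lost its call without latTII replicate 2 (adjusted p = 0.14) and without larva replicate 1 (adjusted p = 0.17). TNFRSF21, a death receptor, and IRF4, an interferon regulatory factor, also fell. CORO1A (KY21.Chr4.957), coronin of leukocytes, had 410.2, 431, 383 and 358 TPM and did not pass. The number of falls was 3, 2, 1 and 0 and of rises 4, 2, 2 and 3 without latTII replicate 1, latTII replicate 2, larva replicate 1 and larva replicate 2.

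Detoxification and redox had a median of 0.59 on the log2 scale (0.45 after the length bins were subtracted), which ranged from 0.364 without latTII replicate 2 to 0.709 with library totals. Of 50 tested genes 7 rose and 2 fell (18%, against 10.5% of genes with a symbol, where 3.62% rose and 6.87% fell). EPHX1 (KY21.Chr3.1137), an epoxide hydrolase, was low but even between replicates at 4.5, 4.49, 13.9 and 12.9 TPM (log2 fold change 1.61, SE 0.17, adjusted p = 9e-05). GCLC (KY21.Chr1.276), the rate-limiting enzyme of glutathione synthesis, had 5.84, 11.7, 40.9 and 39.4 TPM (log2 fold change 2.24, SE 0.49, adjusted p = 0.016), and its latN level of 88.5 TPM was above both. The call of EPHX1 held without any 1 library, and that of GCLC held only without latTII replicate 2 (adjusted p = 0.042, against 0.084, 0.059 and 0.086 without latTII replicate 1, larva replicate 1 and larva replicate 2). GSTT2B, GGT1, BLVRB, CYP3A5 and MGST3 were the other rises, 3 of them acting on glutathione or its conjugates. AKR1C2 (KY21.Chr1.1899), an aldo-keto reductase, had 376, 374, 176 and 129.6 TPM (log2 fold change -1.26, SE 0.23, adjusted p = 0.0046), and CYP1C1 (KY21.Chr5.198), a cytochrome P450, had 22.8, 19, 7.68 and 5.08 TPM (log2 fold change -1.67, SE 0.34, adjusted p = 0.0093). AKR1C2 and CYP1C1 missed the threshold without larva replicate 2 (adjusted p = 0.086 and 0.14). GPX3 (KY21.Chr12.178), an extracellular glutathione peroxidase, had 610.5, 551, 1088 and 1313 TPM. Its replicates did not overlap, as in 54.6% of all genes tested, and its log2 fold change of 1.09 (SE 0.46, adjusted p = 0.18) did not pass. The number of rises was 9, 3, 2 and 2 without latTII replicate 1, latTII replicate 2, larva replicate 1 and larva replicate 2.

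A few enzymes of energy metabolism passed. Of 34 tested genes of glycolysis, glycogen and the citric acid cycle, 3 rose and 1 fell (11.8%, near the 10.5% of genes with a symbol). Their median was 0.16 (0.15 after the length bins were subtracted). Beside ENO1, TPI1 (KY21.Chr7.526), triose phosphate isomerase, had 22.9, 26.1, 63.4 and 75.1 TPM (log2 fold change 1.54, SE 0.25, adjusted p = 0.0024) and PKM (KY21.Chr2.36), pyruvate kinase, 264, 208, 352 and 458 TPM (log2 fold change 0.82, SE 0.20, adjusted p = 0.023). GYS1 (KY21.Chr11.757), glycogen synthase, fell from 61 and 84 to 24.5 and 27.8 TPM (log2 fold change -1.43, SE 0.26, adjusted p = 0.0046). The rises of ENO1 and TPI1 held without any 1 library. PKM missed the threshold without latTII replicate 2 (adjusted p = 0.22) and larva replicate 2 (0.25), and GYS1 without latTII replicate 2 (0.056) and larva replicate 1 (0.053). ENO1 and TPI1 had both been higher in the egg, at 190.1 and 130.1 TPM, and lowest in midTII, at 9.33 and 10 TPM. Of 37 oxidative phosphorylation genes, 3 rose (8.11%, against 3.62% rises among genes with a symbol) and none fell with edgeR. At an unadjusted p under 0.05, 6 were higher and 0 lower, and by DESeq2 5 and 0. The median was 0.26 (0.12 after the length bins were subtracted). UQCRFS1 (KY21.Chr3.1011), the Rieske subunit of complex III, had 14.5, 15.5, 28 and 24.4 TPM, and COX4I2 (KY21.Chr5.352) and COX5A (KY21.Chr11.1237), subunits of complex IV, had 71.3, 83.2, 108 and 121 TPM and 66.2, 48.7, 98.9 and 85.4 TPM. The log2 fold changes of these 3 were 0.84, 0.61 and 0.72, and the 4 fits that each left out a library called 4, 0, 1 and 1 genes of the list. CYCS (KY21.Chr3.1281), cytochrome c, did not pass at 606, 662, 839 and 1319 TPM. None of the 26 fatty acid oxidation genes passed with edgeR or DESeq2, 2 were higher and 0 lower at an unadjusted p under 0.05, and the median was 0.24 (0.22 after the length bins were subtracted). CPT1A (KY21.Chr14.468), which admits fatty acids to mitochondria, had 496, 590.1, 462 and 519 TPM.

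Some cytosolic ribosomal protein mRNAs rose by small amounts. Of 38 tested, 7 rose and none fell with edgeR (18 higher and 0 lower at an unadjusted p under 0.05, 14 and 0 by DESeq2), 22 had larva replicates above both latTII replicates and 0 the reverse (26.8% and 27.8% of all genes tested), and the median log2 fold change was 0.52 (0.34 after the length bins were subtracted). The 7 rises are 18.4% of the list, against 3.62% of genes with a symbol. Genes of the list are among the shortest transcripts, with a median length percentile of 7.4. Their summed TPM was 12730.4 and 12385 in latTII and 17178 and 18757 in larva. RPLP0 (KY21.Chr11.1231), the stalk protein and the most abundant, had 2814, 2190.2, 3354 and 4652 TPM (log2 fold change 0.72, SE 0.21, adjusted p = 0.047). RPL11 (KY21.Chr9.484) had 192, 195, 313 and 315 TPM and RPL8 (KY21.Chr1.1072) 338, 373, 580.3 and 567 TPM (log2 fold changes 0.74 and 0.73, SE 0.18 each, adjusted p = 0.023 each). RPS27A (KY21.Chr10.268), which carries a ubiquitin, had 416, 313, 571 and 748 TPM. RPL4 and RPS19 also rose. The individual calls were fragile, at 6, 0, 2 and 0 genes without latTII replicate 1, latTII replicate 2, larva replicate 1 and larva replicate 2, while the median stayed between 0.465 and 0.585. Of 48 mitochondrial ribosomal protein genes 1 rose (2.08%, below the 3.62% of genes with a symbol), MRPS18A (KY21.Chr11.794), at 10.3, 7.48, 15.9 and 16.5 TPM, and without latTII replicate 2, larva replicate 1 or larva replicate 2 its adjusted p was 0.22, 0.08 and 0.16. The median was 0.22 (0.05 after the length bins were subtracted). None of 82 ribosome biogenesis genes passed with edgeR, 4 were higher and 5 lower at an unadjusted p under 0.05, and by DESeq2 1 rose and 1 fell.

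Of 45 mitosis genes tested 7 fell and none rose with edgeR (16 lower and 2 higher at an unadjusted p under 0.05, 9 and 0 by DESeq2), with a median of -0.26 (-0.23 after the length bins were subtracted). The falls are 15.6% of the list, against 6.87% of genes with a symbol. Of the 7 falls, 5 were in the longest length bin, which holds 22 of the 45 genes and where 12.2% of all genes fell. PLK1 (KY21.Chr12.75), a mitotic kinase, had 141, 135, 79.3 and 69.1 TPM (log2 fold change -0.86, SE 0.15, adjusted p = 0.0038). BUB1B (KY21.Chr11.839), of the spindle checkpoint, had 69.7, 65.9, 41.2 and 34.8 TPM (log2 fold change -0.79, SE 0.17, adjusted p = 0.012). INCENP (KY21.Chr14.281), of the chromosomal passenger complex, and UBE2C (KY21.Chr3.1234), an enzyme of the anaphase-promoting pathway, had 19.9, 26.2, 14.1 and 10.4 TPM and 144, 145, 83.8 and 71.5 TPM. ANLN, ESPL1 and KIF23 were the other falls. Larva values lay below latTII values in all 4 genes given, as in nearly all genes called lower. Fewer members fell without latTII replicate 2 and without either larva replicate. The median stayed between -0.294 and -0.216 in the fits that each left out a library. CDK1 (KY21.Chr12.455), the mitotic kinase, overlapped between stages at 145, 109, 134 and 115 TPM. DNA replication genes had a median of 0.23 (0.24 after the length bins were subtracted). Of 40 tested, 2 rose and 1 fell (7.5%, below the 10.5% of genes with a symbol). CDT1 (KY21.Chr11.278), which licenses replication origins, had 48.4, 51.5, 27.6 and 24.6 TPM (log2 fold change -0.89, SE 0.14, adjusted p = 0.0022) and held without any 1 library. MCM6.2 (KY21.Chr8.753), a helicase subunit, and RRM2 (KY21.Chr1.391), of ribonucleotide reductase, had 11, 13.2, 19.1 and 27.9 TPM and 210.5, 251, 317 and 342 TPM, and rose by 1.00 and 0.56 on the log2 scale. The call of MCM6.2 was lost without latTII replicate 1 (adjusted p = 0.057), latTII replicate 2 (0.051) and larva replicate 2 (0.16), and that of RRM2 in all 4 of these fits (0.18, 0.11, 0.1 and 0.3). The summed TPM of the mitosis list was 5521 in the egg, 1765 in latTII and 1338 in larva.

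Neuronal genes changed in both directions. Of 49 tested, 6 rose and 4 fell, with a median of 0.13 (0.18 after the length bins were subtracted). Calls made up 20.4% of the list, against 10.5% of genes with a symbol, where 3.62% rose and 6.87% fell. HPCAL4 (KY21.Chr7.927) and NCS1 (KY21.Chr1.191), calcium sensors of neurons, had 11.3, 13.5, 80.3 and 62.1 TPM and 26, 28.5, 88.7 and 93.4 TPM. Their log2 fold changes were 2.56 (SE 0.61, adjusted p = 0.021) and 1.78 (SE 0.36, adjusted p = 0.0089). CLSTN2 (KY21.Chr1.964), a synaptic calsyntenin, had 52.4, 50.9, 95.4 and 115 TPM (log2 fold change 1.07, SE 0.18, adjusted p = 0.0034). ASIC1 (KY21.Chr1.2051), a proton-gated channel, had 22.5, 32, 47.6 and 55.9 TPM (log2 fold change 0.97, SE 0.20, adjusted p = 0.0096). Each was higher in both larva libraries, as nearly all genes called higher were, and CPE and DLG2 also rose. ACHE (KY21.Chr11.880), acetylcholinesterase, had 18.8, 24.1, 4.75 and 2.78 TPM (log2 fold change -2.47, SE 0.58, adjusted p = 0.021), although it had been at 1.68 TPM in midTII, so latTII was a peak. In Ciona an acetylcholinesterase marks tail muscle, and which of the genes with this kind of match is the muscle enzyme was not tested. SYNJ1, NOVA2 and PPFIA1 also fell. HPCAL4 lost its call in all 4 fits without a library (adjusted p = 0.093, 0.14, 0.12 and 0.1), and CLSTN2 in 1 of them, without larva replicate 2 (0.066). The adjusted p of ASIC1 was 0.057 without latTII replicate 1 and 0.12 without larva replicate 2. Without latTII replicate 2, larva replicate 1 or larva replicate 2 it was 0.084, 0.058 and 0.11 for NCS1 and 0.13, 0.069 and 0.21 for ACHE. The rises numbered 5, 2, 2 and 0 and the falls 5, 0, 1 and 0 without latTII replicate 1, latTII replicate 2, larva replicate 1 and larva replicate 2.

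Of 15 tested genes of photoreception and pigment, ARRB1 (KY21.Chr1.563), an arrestin, rose, with 106, 81.4, 195 and 156 TPM (log2 fold change 0.95, SE 0.17, adjusted p = 0.0047), and SLC24A2 (KY21.Chr1.2192), a cation exchanger of cone photoreceptors in vertebrates, fell, with 16, 19.8, 11.2 and 10.2 TPM (log2 fold change -0.70, SE 0.18, adjusted p = 0.029). These calls are 13.3% of the list, against 10.5% of genes with a symbol. The call of ARRB1 was lost without latTII replicate 2 and without larva replicate 1 (log2 fold changes 0.75 and 0.80). That of SLC24A2 was lost without latTII replicate 2, larva replicate 1 and larva replicate 2 (log2 fold changes -0.55, -0.74 and -0.65). TYR (KY21.Chr12.1050), tyrosinase of melanin synthesis, had 10.3, 12, 23.7 and 14.3 TPM, and RLBP1 (KY21.Chr11.800), a retinaldehyde-binding protein, 146, 177, 208 and 211 TPM. RGR (KY21.Chr12.157), a retinal G protein-coupled receptor, had 573, 521, 412 and 467 TPM. None of these 3 passed, with adjusted p between 0.40 and 0.56. The log2 fold changes of the 15 genes ranged from -1.66 to 2.10 with a median of 0.14 (0.05 after the length bins were subtracted), and the summed list was 1619 and 1531 TPM in latTII and 1647 and 1585 in larva. Of 61 genes of motile cilia, 2 fell at low levels and none rose with edgeR (3.28%, below the 10.5% of genes with a symbol). At an unadjusted p under 0.05, 12 were lower and 1 higher, and by DESeq2 6 and 1. The falls were CFAP43 (KY21.Chr4.1069) with 3.84, 3.97, 1.68 and 1.18 TPM and DRC3 (KY21.Chr3.507) with 4.69, 8.78, 3.02 and 1.52 TPM. Neither held without latTII replicate 2 (adjusted p = 0.063 and 0.28) or without larva replicate 2 (0.15 and 0.27). The median was -0.32 (-0.35 after the length bins were subtracted), with 50 of 61 members below 0. VWA3A (KY21.Chr10.494) went the other way at 21.1, 34, 96 and 131 TPM, but did not pass (log2 fold change 2.09, SE 0.72, adjusted p = 0.10).

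Of 35 solute carriers 5 fell and 2 rose (20%, against 10.5% of genes with a symbol), with a median log2 fold change of -0.21 before and after the length bins were subtracted. SLC6A8 (KY21.Chr1.1444), a creatine transporter, had 58.9, 81.9, 15.6 and 10.3 TPM (log2 fold change -2.40, SE 0.41, adjusted p = 0.0032), and SLC8A1 (KY21.Chr10.732), a sodium-calcium exchanger, had 112, 228, 68.2 and 61.9 TPM (log2 fold change -1.34, SE 0.26, adjusted p = 0.0074). The zinc transporters SLC39A1 (KY21.Chr11.830), at 34.6, 36.4, 58.7 and 67.6 TPM, and SLC39A7 (KY21.Chr8.230), at 254, 264, 153 and 160.2 TPM, moved in opposite directions. Of 35 lysosome genes 2 rose and 2 fell (11.4%, close to the 10.5% of genes with a symbol). FUCA2 (KY21.Chr1.1786), a fucosidase, had 25.7, 36.8, 10.4 and 9.12 TPM (log2 fold change -1.63, SE 0.27, adjusted p = 0.0024), while ATP6AP2 (KY21.Chr7.846), NAGLU (KY21.Chr8.567) and M6PR (KY21.Chr1.956) changed by 0.72, 0.92 and -0.68. Of 31 genes of apoptosis and autophagy, CASP6 (KY21.Chr12.215), an executioner caspase, rose from 58.4 and 49.6 to 74.7 and 98.1 TPM (log2 fold change 0.72, SE 0.19, adjusted p = 0.03), and MLKL (KY21.Chr4.32), a pseudokinase match, fell from 211 and 226 to 78.6 and 90 TPM (log2 fold change -1.33, SE 0.22, adjusted p = 0.0026). BAG3 (KY21.Chr8.1067), a co-chaperone, also fell, so 9.68% of this list passed, below the 10.5% of genes with a symbol. GABARAP (KY21.Chr1.1965), of autophagosomes, did not pass at 399, 251, 494 and 481 TPM. Of the called lysosome and cell death genes, FUCA2 and MLKL held without any 1 library and the others did not, with adjusted p up to 0.32 (CASP6 without larva replicate 2). Among the solute carriers, leaving out larva replicate 2 gave an adjusted p of 0.066 for SLC6A8, 0.091 for SLC8A1, 0.081 for SLC39A1 and 0.083 for SLC39A7. Leaving out latTII replicate 2 gave 0.093 for SLC8A1 and 0.077 for SLC39A7, which was also at 0.1 without larva replicate 1. The falls of solute carriers numbered 4, 1, 2 and 0 without latTII replicate 1, latTII replicate 2, larva replicate 1 and larva replicate 2. Of 10 germline genes 2 fell and none rose with edgeR (20%, against 6.87% falls among genes with a symbol). At an unadjusted p under 0.05, 1 was higher and 4 lower, and by DESeq2 1 and 2. PIWIL1 (KY21.Chr11.321) and PIWIL2 (KY21.Chr11.1067), Argonaute proteins of piRNAs, fell, with 12, 16.7, 8.56 and 6.69 TPM and 2.78, 2.66, 1.34 and 1.11 TPM. PIWIL2 was near the detection limit. The call of PIWIL1 was lost without latTII replicate 2 and without larva replicate 2 (log2 fold changes -0.63 and -0.73). That of PIWIL2 was lost in every fit that left out a library (log2 fold changes between -1.22 and -1.01). DDX4 (KY21.UAContig2.2), Vasa, did not pass at 90.2, 74.2, 62.6 and 59.5 TPM. Of 26 proteasome genes 1 rose (3.85%, close to the 3.62% of genes with a symbol), PSMB1 (KY21.Chr1.2023), with 43.1, 40.6, 57.4 and 85.1 TPM. Its call was lost without latTII replicate 1, latTII replicate 2 and larva replicate 2 (adjusted p = 0.074, 0.22 and 0.39). The retinoic acid hydroxylase CYP26B1 (KY21.Chr1.1510), the proteases MMEL1 (KY21.Chr1.1898) and TLL2 (KY21.Chr1.1569), and ACTB (KY21.Chr11.687), cytoplasmic actin at 6215, 5281, 6083 and 5366 TPM, overlapped between stages.

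Among the most abundant mRNAs of both stages was LOC108704161 (KY21.Chr14.174), matched to a frog entry without a name. It had 5498, 9069, 2699.6 and 4020.2 TPM, a loss that did not pass (log2 fold change -1.07, SE 0.33, adjusted p = 0.064). LOC108696784 (KY21.Chr9.191), another such match with one of the 5 largest gains in TPM, had 1982, 1236, 2854 and 2939 TPM, a gain that did not pass (log2 fold change 0.89, SE 0.35, adjusted p = 0.15). In both genes the stages did not overlap, as in 54.6% of all genes tested, while the latTII replicates lay far apart.

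Genes without a symbol made up 841 of the 1241 calls. KY21.Chr7.230 was at 0 in both latTII libraries and at 25.8 and 31.3 TPM in larva, at least 93.5-fold higher when 3 counts over the latTII libraries are taken as the floor (adjusted p = 0.012). KY21.Chr3.1584 had 0.203, 0, 19.9 and 23.7 TPM (adjusted p = 0.03). Neither reached 1 TPM in any earlier stage mean. KY21.Chr8.1007 fell from 82.7 and 75.1 to 1.48 and 1.36 TPM (log2 fold change -5.71, SE 0.59, adjusted p = 7.7e-05), after 128 TPM in midTII. KY21.Chr9.979 had 20.4, 19.6, 0 and 0.29 TPM (adjusted p = 0.026) and 4.05 TPM in midTII, so latTII was its highest stage. KY21.Chr8.1007 held without any 1 library. The others each missed the threshold in at least 3 of the 4 such fits, with the adjusted p up to 0.095 for KY21.Chr7.230, 0.22 for KY21.Chr3.1584 and 0.17 for KY21.Chr9.979.

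The earlier stages, which the calls did not compare, place these genes in the course. Among the first 6 stages, from the egg to midTII, 317 of the 761 fallen genes (41.7%) had their highest mean TPM in midTII, against 26.1% of all genes tested. Another 188 (24.7%, against 22.7% of all) peaked in iniG and 140 (18.4%, against 16.1%) in latN. Of the 480 risen genes 154 (32.1%) had their highest of these 6 values in midTII and 105 (21.9%, against 19.1% of all) in the fertilized egg. Over all 8 stages, 279 of the risen genes (58.1%) were highest in larva, against 16.7% of all genes tested. The median TPM of the risen genes was 24.6 in the egg, 18.6 in midTII, 24.5 in latTII and 68.9 in larva. That of the fallen genes was 44 in the egg, 70.2 in midTII, 66.9 in latTII and 27.8 in larva. The values of latTII and larva were used to make the calls and are given as a description. ENO1, MUC6 and CHSY1 are examples of genes that were higher in the egg than in latTII and rose again in larva. SELE, HMCN1, LGALS8 and HOXD10 had lower means in every stage up to midTII than in latTII.

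**Figure D5:**
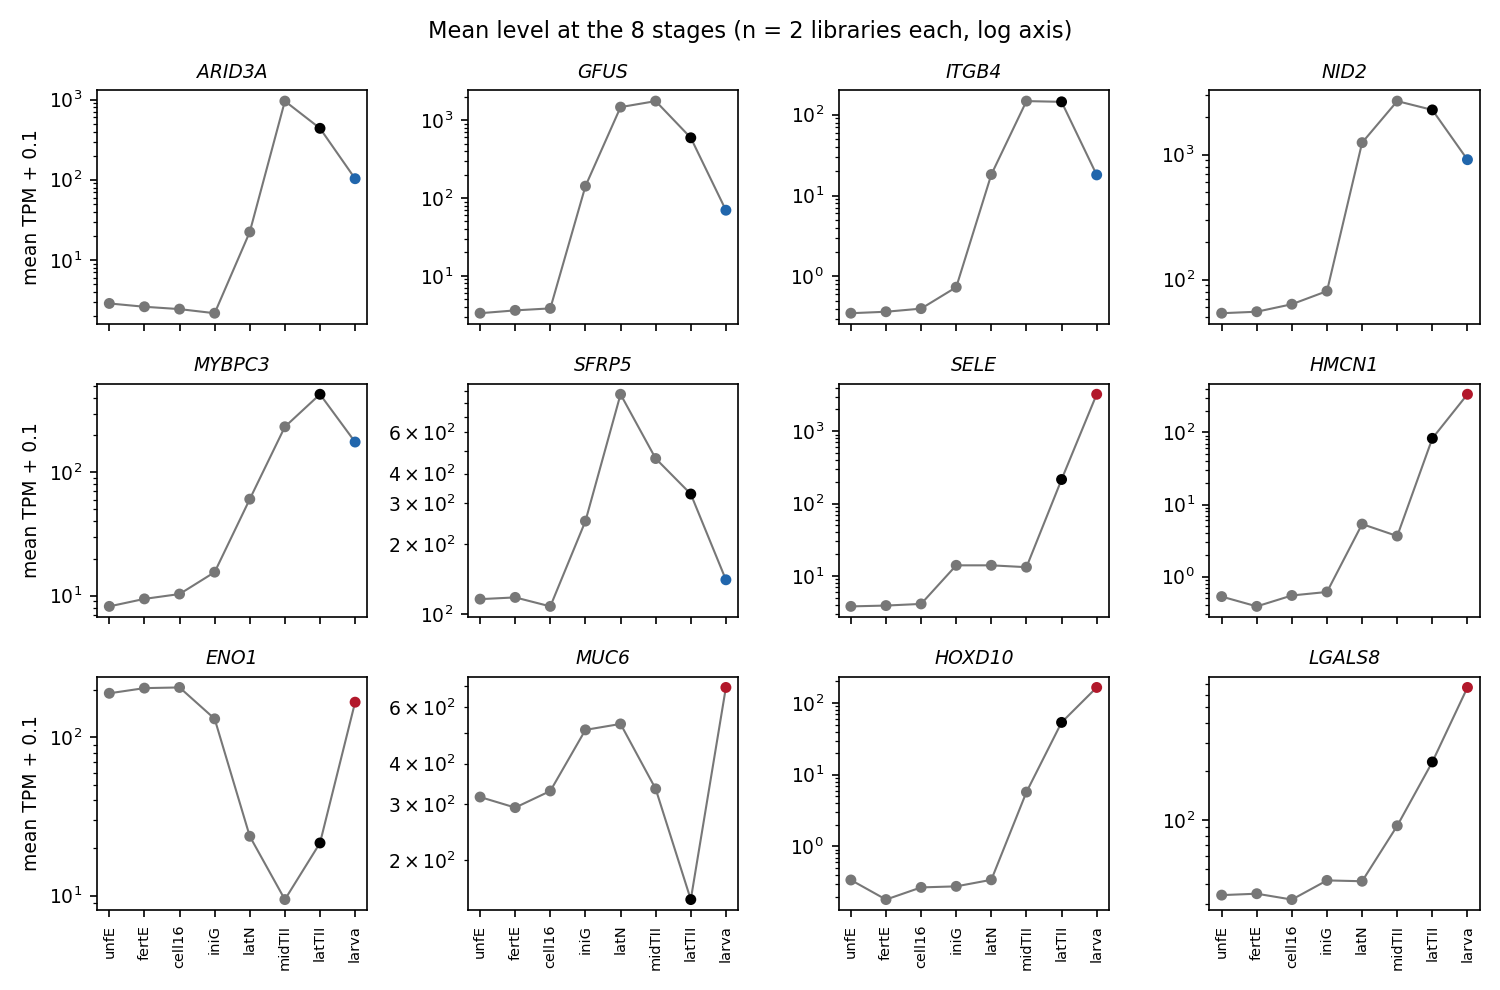
Mean TPM plus 0.1 (log axis, n = 2 libraries a stage) of 12 named genes at the 8 stages from the unfertilized egg (unfE) to the larva, with the latTII value in black and the larva value in red (higher) or blue (lower). ARID3A, GFUS, ITGB4, NID2 and SFRP5 had passed their highest level or stood near it before latTII and went on falling, while SELE rose from 13.1 TPM in midTII to 3241 in larva.

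By stage means 723 genes became detected in larva and 580 were no longer detected. Of the 723, 630 were tested and 66 rose, and of the 580, 489 were tested and 36 fell. Over all genes tested 3.28% rose and 5.2% fell, and since detection uses the same values as the test nothing is read from the difference. The net gain of 143 genes turned to a loss of 36 without larva replicate 1 and was 261 without latTII replicate 1. Of the gained genes 380 were below the limit in every earlier stage mean, and 35 of these reached 10 TPM in larva, of which 18 passed.

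Called genes were next to each other in identifier order more often than genes at large. Of 473 risen genes with a tested neighbour, 64 (13.5%) had a risen gene on at least 1 side, against 5.8% of all 14137 genes tested with such a neighbour. For the fallen genes it was 95 of 740 (12.8%), against 8.6%. Most of these runs were pairs, 29 of risen and 43 of fallen genes, with 2 and 3 runs of 3 genes. A run chosen after its values were seen is that of EIF4G3, CEP120 and YBX1, at numbers 617 to 619 on chromosome 1 in the KY21 numbering, which fell by between 1.20 and 2.17 on the log2 scale. Why neighbours were called together was not tested. Transcript models carry the tags SL or nonSL, which in Ciona annotations refer to the trans-spliced leader. Of the genes tagged SL, 81 rose and 155 fell of 2105 (3.85% and 7.36%). Of those tagged nonSL, 47 rose and 55 fell of 1185 (3.97% and 4.64%). A further tag, ND, was carried by 387 genes, of which 18 rose and 34 fell (4.65% and 8.79%). Of 76 genes with several tags, 7 rose and 2 fell (9.21% and 2.63%). The tags were read from the study's tables of proteins, so most genes tested carry none. Over all genes tested, with or without a tag, these shares were 3.28% and 5.2%, which is not a like background for the tagged genes. The median log2 fold changes were 0.02 for SL, 0.07 for nonSL, -0.04 for ND and 0.22 for several tags.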

How the data were processed

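Whole embryos at 8 stages were profiled by poly(A), stranded, paired-end RNA-seq with 2 biological replicates a stage. Per the labels and the study's methods, the authors trimmed reads with Trim Galore, quantified them with Salmon on the KY21 transcriptome and imported gene-level values. The deposited estimated counts are not whole numbers and were rounded. The deposited TPM values are length-corrected and sum to the same total in each library. Salmon divides reads between similar copies, so values of near-identical genes are uncertain. A deposited DESeq2-normalised table was not used here.

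Counts of all 16 libraries were fitted in 1 model by stage with edgeR 4.0.16 (R 4.3.3, TMM factors, filterByExpr, robust quasi-likelihood F-test), and the larva minus latTII contrast was adjusted over 14623 genes at a threshold of 0.05. The SE was obtained by dividing the size of each log2 fold change by the root of its F statistic. A gene was called detected at a TPM of at least 2. Gene rows with other identifiers (36, 18.3 to 24.2% of the TPM) were left out. p-values measure the spread between the deposited samples. One replicate of each stage shares the fertilization of the study's proteomics and the other is an independent course, and which number is which is not given in the sources used here.

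Genes were named by rule: the 15 largest rises and falls with a symbol, replicates that do not overlap and a TPM of at least 10, up to 4 called members of each of 26 lists and its most abundant member that did not pass, the 5 most abundant genes and the 5 largest gains and losses in TPM, 2 rises and 2 falls without a symbol, and a fixed set of developmental genes. A few genes that this rule names are not reported here. The other called list members were named after their values were seen. The members and lists were chosen with earlier results of these data known. The check by length and the counts per list under each alternative were added after the data were seen. Alternatives were DESeq2 1.42.0, limma 3.58.1 on log2(TPM + 1) and log2(TPM + 0.1), other scalings and count filters, a minimum change, the 4 libraries alone, a replicate block, and 4 fits that each lacked a library. The fits were tested on simulated data.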

Additional observations from a re-analysis of the deposited data

Results flagged for a closer look

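The 36 rows with an identifier other than KY21, which no comparison used, held 24.2% and 18.3% of the TPM in latTII replicates 1 and 2 and 23.3% and 23.7% in larva replicates 1 and 2. They are given because they are a signal in data outside the comparison. A single one of these rows held 20.9%, 15%, 19.9% and 19.7% in the same order. With these rows in the fit, 479 genes rose and 758 fell.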

How the results depend on the processing

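DESeq2 called 933 rises and 1148 falls (44.8% of calls higher), and limma called 1005 rises on log2(TPM + 1) (49.2% higher), while on log2(TPM + 0.1) 42.2% of calls were higher. With library totals the share was 56.2% and the median of all genes 0.167. A required log2 change of at least 1 left 79 rises and 70 falls (53.0%). With only the 4 libraries the share was 48.6%. The causes of these shifts were not tested. Without 1 library, rises ranged from 118 to 549, falls from 177 to 797, the share from 35.1% to 41.2%, the median from 0.001 to 0.101, and the net gain of detected genes from -36 (without larva replicate 1) to 261. That gain was 23 at 10 counts or more and 252 at a TPM of 2 in both replicates. RLE factors, the count filters and the other identifiers kept both counts within 1.5 times. Of the 1241 calls, DESeq2 found 1233, library totals 990 and the 4 libraries alone 762, none with the opposite sign. Of 103 named called genes, 38 held without each of the 4 libraries in turn, 65 were lost at least once and none reversed.

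Each stage has 1 replicate from either of 2 fertilizations, but whether a number marks the same fertilization at both stages is not given. Deviations of same-numbered replicates correlated at 0.173 between latTII and larva. A replicate block in the fit of all 16 libraries gave 540 rises and 807 falls, and in the fit of the 4 libraries 1009 rises and 1045 falls (49.1% higher). Depth was 24.6 to 33.4 M counts a library, and 2 replicates a stage limit the precision of every test.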
